A study of Mus musculus with 10 samples.

Results

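The guidance genes of the semaphorin, ephrin, netrin and Slit systems were followed in sorted prostate cells. The tissue came from C57BL/6 mice, and their age was 8 to 12 weeks. Membership goes by gene symbol: semaphorins of classes 3 to 7, plexins, neuropilins, Eph receptors, ephrins, netrins, Slits, Robo receptors and Unc5 receptors. The rule found 68 genes of the 24536 to which transcripts could be assigned by position. They comprise 20 semaphorins, 9 plexins, 2 neuropilins, 8 ephrins, 14 Eph receptors, 4 netrins, 4 Unc5 receptors, 3 Slits and 4 Robo receptors. The 10 RNA-seq libraries came from 4 gates drawn among lineage-negative (Lin-) cells with the surface proteins CD24, CD49f (integrin alpha 6) and Sca-1 (gene Ly6a). Stromal cells (Lin-/CD24-/CD49f-) gave 2 libraries and basal epithelial cells (Lin-/CD24low/CD49fhigh) gave 2. Luminal epithelial cells (Lin-/CD24high/CD49flow) gave 3 libraries from the Sca-1+ gate and 3 from the Sca-1- gate. All carried the same strain background and no treatment is named. Separate animals are not named for the libraries, so the p-values below measure the spread between these libraries, which may be technical. A culture protocol is listed for every library, and whether the sorted cells had passed through culture is not stated.

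These families were first described as cues that steer growing axons, and they act in many epithelia and vessels as well. Class 3 semaphorins are secreted and signal through complexes of a neuropilin and a plexin, whereas the transmembrane semaphorins bind plexins directly. Ephrins and Eph receptors are both tethered to membranes, so they signal between touching cells, and often in both directions. Netrins are laminin-related secreted proteins read by Dcc, neogenin (Neo1) and Unc5 receptors, and Slits are secreted ligands of Robo receptors. In the prostate the epithelium forms a basal and a luminal layer on a basement membrane beside fibroblasts and smooth muscle, and guidance receptors and ligands are known in each of these compartments.

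Promoters are shown for 4 members that peak in different gates, picked after their values were seen: Slit3 and Ntn4, highest in stromal libraries, Epha2, highest in basal libraries, and Sema4a, highest in Sca-1- luminal libraries. Each runs from 250 bases before to 50 bases after a RefSeq start site on GRCm38.p6, in the gene's own direction. Capitals mark GC boxes (GGGCGG, the core of sites of Sp factors) and TEAD motifs (GGAATG), each searched on both strands. Neighbouring GC boxes can overlap, as they do in Slit3 and Ntn4. Slit3 lies at chr11:35121206-35121505 on the plus strand, Epha2 at chr4:141300971-141301270 on the plus strand, Ntn4 at chr10:93640799-93641098 on the plus strand and Sema4a at chr3:88455712-88456011 on the minus strand.
Slit3: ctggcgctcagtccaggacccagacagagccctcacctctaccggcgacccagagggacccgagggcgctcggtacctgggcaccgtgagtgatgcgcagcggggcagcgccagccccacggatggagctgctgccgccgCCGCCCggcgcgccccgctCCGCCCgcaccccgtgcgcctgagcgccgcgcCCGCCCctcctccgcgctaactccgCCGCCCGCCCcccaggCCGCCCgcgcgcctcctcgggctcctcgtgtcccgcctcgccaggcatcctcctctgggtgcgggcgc
Epha2: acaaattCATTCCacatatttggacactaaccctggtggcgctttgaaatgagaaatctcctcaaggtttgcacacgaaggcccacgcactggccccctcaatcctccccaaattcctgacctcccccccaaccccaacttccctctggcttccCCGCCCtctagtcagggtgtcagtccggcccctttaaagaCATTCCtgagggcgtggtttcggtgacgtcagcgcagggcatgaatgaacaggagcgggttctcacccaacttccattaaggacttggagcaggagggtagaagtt
Ntn4: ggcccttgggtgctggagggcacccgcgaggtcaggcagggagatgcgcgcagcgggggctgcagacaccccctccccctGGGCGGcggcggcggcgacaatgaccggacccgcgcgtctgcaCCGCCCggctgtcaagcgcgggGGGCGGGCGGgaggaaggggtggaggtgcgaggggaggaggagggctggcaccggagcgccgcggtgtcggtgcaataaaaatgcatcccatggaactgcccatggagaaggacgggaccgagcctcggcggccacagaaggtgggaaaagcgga
Sema4a: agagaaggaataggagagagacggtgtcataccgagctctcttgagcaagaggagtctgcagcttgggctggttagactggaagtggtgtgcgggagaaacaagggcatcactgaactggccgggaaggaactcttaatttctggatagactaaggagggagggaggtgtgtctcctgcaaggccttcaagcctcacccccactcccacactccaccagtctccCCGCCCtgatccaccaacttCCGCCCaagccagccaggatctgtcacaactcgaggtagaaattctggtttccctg

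The Slit3 window holds 6 GC boxes, the Ntn4 window 4 and the Sema4a window 2. Epha2 differs from these 3 in having 1 GC box and 2 TEAD motifs, at -243 and -56 from the start site. Sema4a has 4 start sites in RefSeq, and the one shown is nearest to its most abundant transcript. RefSeq promoters were found for 59 of the 68 members and for 19 of the 24 that reached a mean of 5 FPKM in a gate. Among those 19, a GC box occurred in 17 (89.5%), against 62.3% of the 12378 promoters of genes tested here and 35.7% of all 32851 promoters. The sets are unlike: each of the 19 members has 1 window, while every listed promoter of a tested gene was counted. Tested genes also needed only 1 FPKM in 2 libraries. TEAD motifs occurred in 3 of the 19, in Efnb2, Epha2 and Plxnb1, against 12.5% of promoters of tested genes. The AP-1 motif (TGANTCA) occurred in 1 of the 19 and the E-box CACCTG in 2, against 5.66% and 18.3% of promoters of tested genes. AGAACA, part of the androgen receptor element, was in 0 of the 19 windows, against 12.5% of promoters of tested genes. A match describes letters in the window and shows no binding.

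Levels are given in FPKM, a count of fragments scaled to transcript length and library size, summed over a gene's transcripts. This unit is per length, so levels may be set beside each other between genes. Depth read from the values was 20.2 to 27.2 M (mega) fragments a library, so that 1 FPKM on a transcript of 1 kb rests on 20 to 27 fragments. Cells of a gate and RNA per cell cannot be told apart in such libraries: fewer cells of a type and less RNA in each would look alike. The gates were checked against their markers. The basal keratin Krt14 was at 1956 and 1866 FPKM in basal libraries and at most 139 FPKM elsewhere, and Pbsn, a luminal secretory product, was at 17563 to 33704 FPKM in Sca-1- luminal libraries and at most 4001 FPKM elsewhere. The 6 fibroblast markers (Col1a1, Col1a2, Col3a1, Dcn, Lum, Pdgfra) summed to 4992 to 6780 FPKM in stromal libraries and 492 to 682 FPKM in basal libraries. In the Sca-1+ luminal gate the same sum was 4736 FPKM in replicate 1, 2320 FPKM in replicate 2 and 328 FPKM in replicate 3, against 75.3 to 132 FPKM in Sca-1- luminal libraries. No fibroblast marker was at 0 in any group. Replicate 3 also stood apart on Spink1, a secretory product, at 7.96 FPKM, against 7848 FPKM in replicate 1 and 13625 FPKM in replicate 2. Spink1 was at 2289 and 3767 FPKM in stromal, 1504 and 2133 FPKM in basal and 84219 to 128871 FPKM in Sca-1- luminal libraries. The Sca-1+ luminal libraries thus differ among themselves in both kinds of marker. Changes of several genes on this gate are therefore also given with replicate 3 alone, while counts of called genes are not. Over the 43 members tested, the Pearson correlation of replicate 1 of this gate was 0.87 with each stromal library. With replicates 2 and 3 of its own gate it was 0.92 and 0.677. For replicate 3 it was 0.832 with replicate 2 of its own gate and 0.827 and 0.826 with the basal libraries. Over all genes tested, replicate 3 was at 0.911 with replicate 2, 0.846 and 0.852 with the basal libraries and 0.808 to 0.871 with the Sca-1- luminal libraries. Smooth muscle markers (5 genes) summed to 98.7 to 188 FPKM in stromal, 96.9 to 199 FPKM in basal, 21.4 to 309 FPKM in Sca-1+ luminal and 52.4 to 75.6 FPKM in Sca-1- luminal libraries. Endothelial markers (7 genes) summed to at most 31.8 FPKM in any library. Leukocyte markers (5 genes) summed to 7.19 to 17.1 FPKM in stromal, 12.5 to 20.2 FPKM in basal, 11 to 24 FPKM in Sca-1+ luminal and 4.34 to 22.8 FPKM in Sca-1- luminal libraries, with Cd3e listed at 0 in libraries of every gate. Seminal vesicle secretion genes (Svs2, Svs4, Svs5) summed to 108 to 130 FPKM in stromal, 67.9 to 105 FPKM in basal and 3388 to 6753 FPKM in Sca-1+ luminal libraries. In the Sca-1- luminal gate that sum was 17744 FPKM in replicate 1, 1331 FPKM in replicate 2 and 40189 FPKM in replicate 3. The part of the leukocyte and seminal vesicle genes in the differences between gates was not tested.

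Of the 68 members, 43 reached 1 FPKM in at least 2 libraries and were tested, and 24 reached a mean of 5 FPKM in at least 1 gate. Those 24 had their highest mean in stromal libraries for 8, in basal libraries for 11, in Sca-1+ luminal libraries for 2 and in Sca-1- luminal libraries for 3. The stromal 8 were Sema4c, Sema5a, Nrp1, Nrp2, Ntn1, Ntn4, Slit3 and Robo2, so that every neuropilin, netrin, Slit and Robo gene at this level peaked there. The basal 11 were Sema3c, Sema3f, Sema4b, Sema6a, Plxna1, Plxnb1, Plxnb2, Efnb1, Epha2, Ephb3 and Ephb4, which includes every plexin at this level. Efnb2 and Sema3b peaked in Sca-1+ luminal libraries, and Efna1, Sema4a and Ephb6 in Sca-1- luminal libraries. The lowest mean within this set was 5.21 FPKM, and the highest outside it was 4.27 FPKM, for Efna5 in basal libraries.

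**Figure D1:**
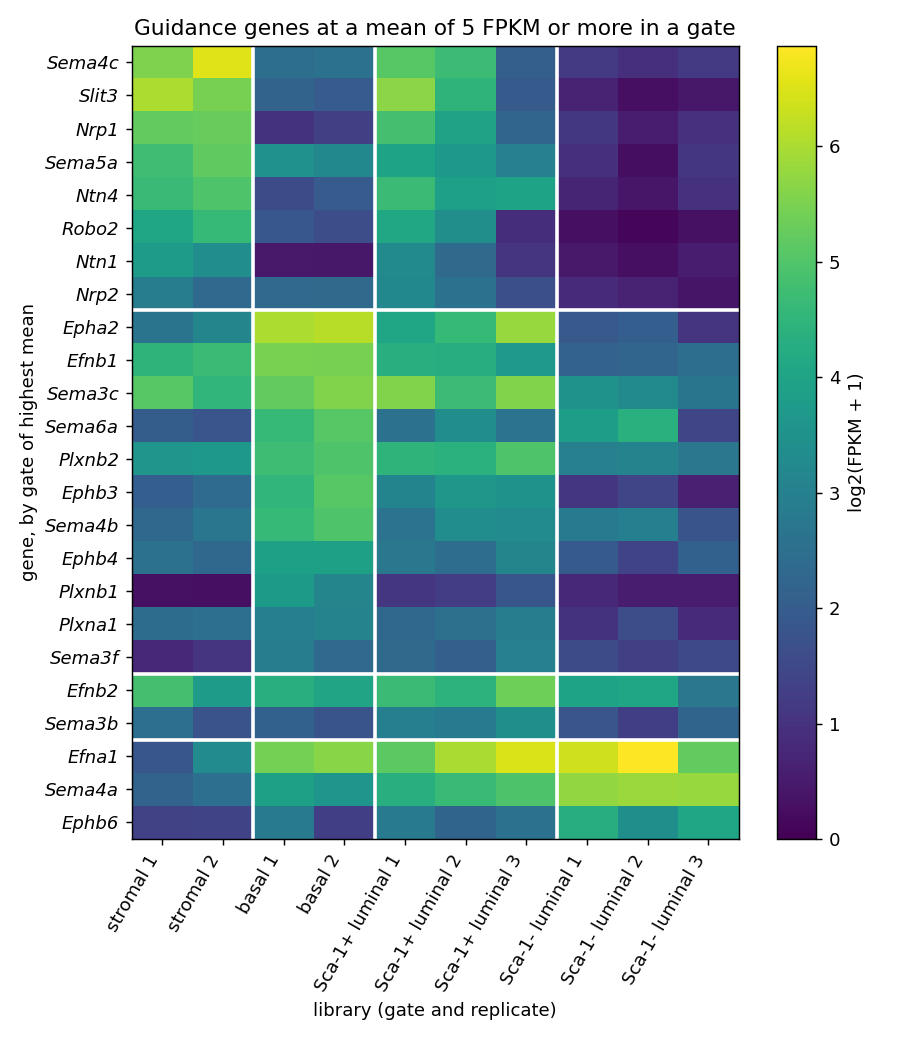
Level of the 24 guidance genes with a mean of 5 FPKM or more in a gate, as log2(FPKM + 1) by color, with 1 column per library and 1 row per gene, grouped by the gate of the highest mean. The upper block of 8 genes is bright in both stromal libraries and in Sca-1+ luminal replicate 1, and dark in all 3 Sca-1- luminal libraries.

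Differences were tested with limma on log2(FPKM + 1) over all 12425 genes that passed the same filter, and a call needed an adjusted p (Benjamini-Hochberg) under 0.05. Members that passed the filter only through the gate where they are high had to differ, so the counts describe these 43 genes and are read against the counts over all genes tested. Between stromal and basal libraries 9 members were higher and 13 lower, 51.2% of those tested, whereas 22.5% of all genes were called (13.4% higher, 9.11% lower), and the median change was 0.02 for members and 0.02 for all genes. Without basal replicate 1 the count of 22 fell to 9, without basal replicate 2 to 10, without stromal replicate 1 to 14 and without stromal replicate 2 to 12. Between stromal and Sca-1- luminal libraries 21 were higher and 5 lower (60.5%), against a background of 52.6% (25.2% higher, 27.4% lower), so the share called was near the background and the split was not: the median change was 0.93 for members and -0.06 for all genes. Leaving out stromal replicate 1 left 17 of the 26. Between basal and Sca-1- luminal libraries 19 were higher and 3 lower (51.2%), against 46.1% of all genes (20.1% higher, 25.9% lower), with a median of 1.05 for members and -0.05 for all genes. Between Sca-1+ and Sca-1- luminal libraries 25 were higher and 3 lower (65.1%), against 35.1% of all genes (21.8% higher, 13.3% lower), with a median of 0.95 for members and 0.19 for all genes. When Sca-1+ luminal replicate 2 was left out, 18 were higher and 1 lower. Of the calls among members 94.7% were then higher, against 62.1% of the calls among all genes. Between basal and Sca-1+ luminal libraries 6 were higher and 4 lower (23.3%), against 19.8% of all genes (4.39% higher, 15.4% lower), a share near the background. That count of 10 became 16 without Sca-1+ luminal replicate 3 and 6 when replicate 2 of that gate was left out. It was 5 without basal replicate 1 and 3 without basal replicate 2. Counts from fits with a library left out stand without the share of all genes called there. They describe only how the calls moved. Under median-of-ratios scaling the basal to Sca-1+ luminal split of 6 higher and 4 lower became 7 and 2, and under quantile normalization 8 and 2. Comparisons that share a gate share its libraries.

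**Figure D2:**
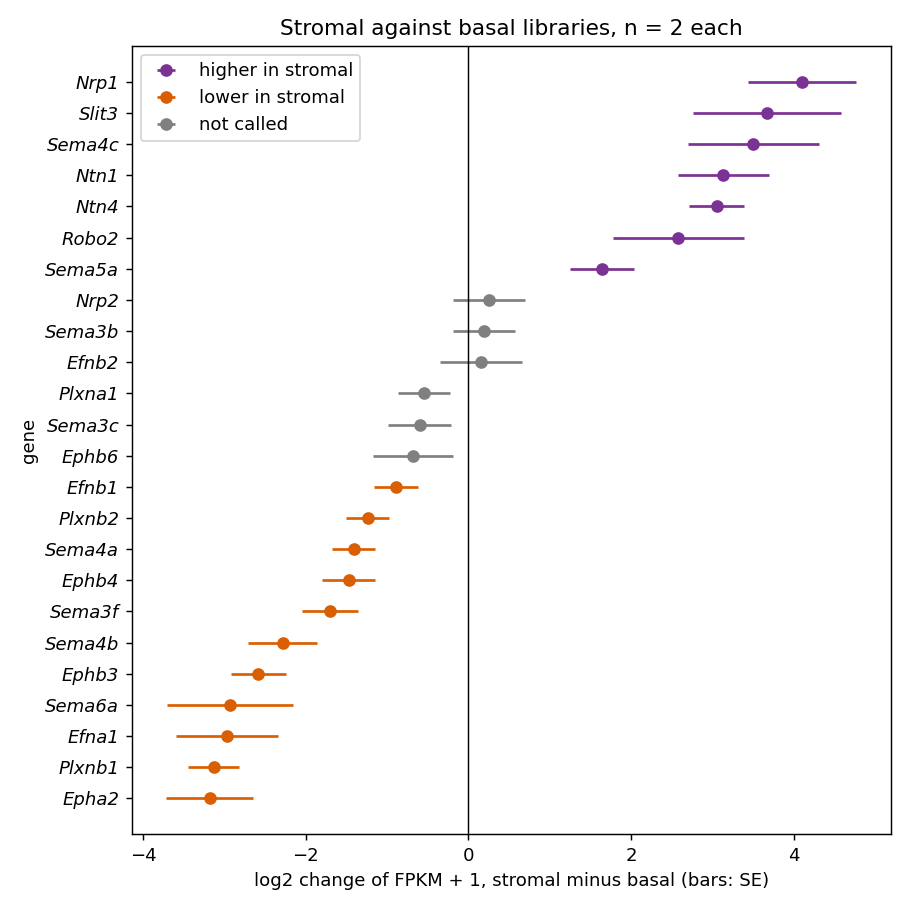
Log2 change of FPKM + 1, stromal minus basal, for the 24 genes with a mean of 5 FPKM or more in a gate, with 2 libraries in each gate. Points are limma estimates and bars are standard errors, and color marks the call at an adjusted p under 0.05. Nrp1 (4.10) stands at the upper end and Epha2 (-3.18) at the lower end.

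Among semaphorins, Sema4c and Sema5a were highest in stromal libraries. All gene spans below are on GRCm38.p6. Sema4c (chr1:36548639-36560699), a transmembrane ligand of plexin-B2, was at 45.8 and 90.9 FPKM in stromal, 4.59 and 5.04 FPKM in basal, 32.8, 25.1 and 3.19 FPKM in Sca-1+ luminal and 1.23, 0.946 and 1.23 FPKM in Sca-1- luminal libraries. Both stromal libraries lay above every other library, while the Sca-1+ luminal libraries ranged across the gap. The log2 change was 3.50 ± 0.809 (SE) between stromal and basal libraries (adjusted p = 0.0136), and this call was lost without basal replicate 1, basal replicate 2 or stromal replicate 2, with an adjusted p of at most 0.0999. Against Sca-1- luminal libraries the stromal level was higher by 4.94 ± 0.739 (adjusted p = 0.000627). Sema5a (chr15:32244813-32696341), a transmembrane semaphorin with thrombospondin repeats, was at 26.4 and 35.4 FPKM in stromal, 10.2 and 8.19 FPKM in basal, 14.9, 11.7 and 6.95 FPKM in Sca-1+ luminal and 0.941, 0.199 and 1.13 FPKM in Sca-1- luminal libraries. It formed a ladder of gates, with overlap only between basal and Sca-1+ luminal libraries. All 3 of the other gates were called higher than Sca-1- luminal libraries, by 4.21 ± 0.357 in stromal (adjusted p = 4.31e-05), 2.58 ± 0.357 in basal (0.000409) and 2.78 ± 0.319 in Sca-1+ luminal libraries (0.000559). The stromal to basal change of 1.64 ± 0.391 (adjusted p = 0.0154) was lost without basal replicate 1, basal replicate 2 or stromal replicate 2, with an adjusted p of at most 0.105.

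Sema3c, Sema3f, Sema4b and Sema6a peaked in basal libraries, at very different contrasts to the other gates. Sema3c (chr5:17574816-17730268), a secreted ligand of both neuropilins, was at 32.9 and 21.8 FPKM in stromal, 36.3 and 46.5 FPKM in basal, 46.3, 25 and 46.4 FPKM in Sca-1+ luminal and 10.5, 8.8 and 5.35 FPKM in Sca-1- luminal libraries. The Sca-1+ luminal libraries spanned the stromal and basal values, and the Sca-1- luminal libraries lay below all of these. Against Sca-1- luminal libraries the changes were 1.64 ± 0.357 (stromal, adjusted p = 0.00419), 2.23 ± 0.357 (basal, 0.000903) and 2.11 ± 0.319 (Sca-1+ luminal, 0.00171). Sema4b (chr7:80186870-80226646), a transmembrane semaphorin known from synapses, was at 4 and 5.5 FPKM in stromal, 23.3 and 30.6 FPKM in basal, 5.14, 9.35 and 8.96 FPKM in Sca-1+ luminal and 5.93, 6.87 and 2.45 FPKM in Sca-1- luminal libraries. Its basal libraries stood above all 8 others. The changes were -2.28 ± 0.424 between stromal and basal libraries (adjusted p = 0.00534), 1.69 ± 0.387 between basal and Sca-1+ luminal libraries (0.0156) and 2.27 ± 0.387 between basal and Sca-1- luminal libraries (0.00127). The basal to Sca-1+ luminal call was lost with replicate 3 as the only Sca-1+ luminal library and without either basal replicate, with an adjusted p of at most 0.135. Sema6a, a transmembrane ligand of plexin-A2 and plexin-A4, was at 3.08 and 2.49 FPKM in stromal, 23.5 and 33 FPKM in basal, 4.94, 9.39 and 5.11 FPKM in Sca-1+ luminal and 13.1, 19.6 and 1.71 FPKM in Sca-1- luminal libraries. The last of these gates spanned nearly the whole range below the basal libraries. Only the stromal to basal change was called for Sema6a, at -2.93 ± 0.777 (adjusted p = 0.0239), and it was lost without any 1 of the 4 libraries of these gates and with no filter on low values, with an adjusted p of at most 0.135. Sema3f (chr9:107681499-107710475), a secreted ligand of neuropilin-2, was at 0.714 and 1.09 FPKM in stromal, 6.36 and 4.1 FPKM in basal, 4.19, 3.23 and 6.94 FPKM in Sca-1+ luminal and 1.99, 1.46 and 1.84 FPKM in Sca-1- luminal libraries. Basal and Sca-1+ luminal libraries overlapped for Sema3f and both lay above the other gates. The stromal to basal log2 change of Sema3f was -1.70 ± 0.339 (adjusted p = 0.00731), a call lost without basal replicate 1 or stromal replicate 1, with an adjusted p of at most 0.0648.

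Sema4a and Sema3b peaked in the luminal gates. Sema4a (chr3:88435959-88461182), a transmembrane semaphorin that binds B-type plexins and is known from immune cells and retina, was at 3.54 and 4.68 FPKM in stromal, 14.1 and 11.1 FPKM in basal, 18.9, 23.9 and 29.7 FPKM in Sca-1+ luminal and 52.9, 55.9 and 55.5 FPKM in Sca-1- luminal libraries. No 2 gates overlapped. All 5 comparisons called it: -1.41 ± 0.261 for stromal against basal (adjusted p = 0.00523), -3.46 ± 0.238 for stromal against Sca-1- luminal (2.2e-05), -2.05 ± 0.238 for basal against Sca-1- luminal (0.000165), -1.17 ± 0.213 for Sca-1+ against Sca-1- luminal (0.00393) and -0.87 ± 0.238 for basal against Sca-1+ luminal libraries (0.0305). The smallest of these was lost under 7 of 18 other settings, both rescalings included, with an adjusted p of at most 0.22, and the Sca-1+ to Sca-1- luminal change was -0.86 ± 0.267 with replicate 3 alone (adjusted p = 0.0633). Without basal replicate 1 the stromal to basal adjusted p was 0.0502. Sema3b (chr9:107597674-107609241), a secreted semaphorin studied as a tumor suppressor, was at 4.72 and 2.41 FPKM in stromal, 3.35 and 2.45 FPKM in basal, 6.79, 6.12 and 9.71 FPKM in Sca-1+ luminal and 2.51, 1.43 and 3.65 FPKM in Sca-1- luminal libraries. Sca-1+ luminal libraries lay above all others, and replicate 3, the library with the lowest fibroblast marker sum of its gate, was the highest. Between the luminal gates the change was 1.30 ± 0.314 (adjusted p = 0.0127), and with replicate 3 alone it was 1.65 ± 0.441 (0.04).

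The other 7 tested semaphorins stayed below a mean of 5 FPKM in each gate, at 5.77 FPKM or less in any library. Sema3a, a secreted repellent that signals through Nrp1, was at 0.214 and 0.374 FPKM in stromal, 2.16 and 2.13 FPKM in basal, 0.299, 0.173 and 0.052 FPKM in Sca-1+ luminal and 0.238, 0 and 0.265 FPKM in Sca-1- luminal libraries. Its basal libraries lay above the rest, with calls against stromal (-1.28 ± 0.217, stromal minus basal, adjusted p = 0.00353), Sca-1+ luminal (1.43 ± 0.198, 0.0018) and Sca-1- luminal libraries (1.44 ± 0.198, 0.000394), and all 3 calls were kept in each of 18 other settings. Sema3a passed the filter only through its basal libraries, so it had to differ and these calls are no separate support. Sema3e, a ligand of plexin-D1, measured 5.77 and 0.957 FPKM in stromal and 3.24, 0.464 and 0.564 FPKM in Sca-1+ luminal libraries, so 1 library of each gate was well above its partners. Sema6d, Sema4d, Sema3d, Sema6b and Sema7a had library values of at most 4.15, 3.18, 2.95, 2.6 and 3.8 FPKM. Sema4d, the main ligand of plexin-B1, measured 0.238 and 0 FPKM in stromal libraries, against 1.82, 2.37 and 1.55 FPKM in Sca-1- luminal ones (log2 change -1.38 ± 0.397, adjusted p = 0.0157, lost without stromal replicate 1 or 2, with an adjusted p of at most 0.0967).

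The 3 plexins that reached a mean of 5 FPKM, Plxnb1, Plxnb2 and Plxna1, had that highest mean in basal libraries. Of the 5 plexins tested, 2 (40%) were called lower in stromal than in basal libraries, against 9.11% of all genes. Higher in basal than in Sca-1+ luminal libraries was 1 (20%), against 4.39% of all genes. Plxnb1 (chr9:109093849-109119915), the receptor of Sema4d, was at 0.247 and 0.22 FPKM in stromal, 12.3 and 7.73 FPKM in basal, 1.11, 1.37 and 2.58 FPKM in Sca-1+ luminal and 0.729, 0.446 and 0.475 FPKM in Sca-1- luminal libraries. Basal libraries were above all 8 others, with changes of -3.13 ± 0.316 for stromal against basal (adjusted p = 0.000382), 2.04 ± 0.288 for basal against Sca-1+ luminal (0.00196) and 2.80 ± 0.288 for basal against Sca-1- luminal libraries (8.46e-05). These 3 calls were kept in each of 18 other settings, whereas the Sca-1+ to Sca-1- luminal change of 0.76 ± 0.258 (adjusted p = 0.0455) was lost in 11 of them, with an adjusted p of at most 0.324. Plxnb2 (chr15:89155546-89182018), the receptor of Sema4c, was at 11 and 11.6 FPKM in stromal, 25.8 and 30.6 FPKM in basal, 21.1, 19.8 and 30.6 FPKM in Sca-1+ luminal and 6.98, 7.36 and 5.59 FPKM in Sca-1- luminal libraries. Basal and Sca-1+ luminal libraries overlapped, and both exceeded Sca-1- luminal libraries, by 1.94 ± 0.242 (adjusted p = 0.000233) and 1.68 ± 0.216 (0.000886). The stromal to basal change was -1.24 ± 0.265 (adjusted p = 0.00945), and it was lost without basal replicate 2 or stromal replicate 1, with an adjusted p of at most 0.0779. Plxna1 (chr6:89316313-89362613), a signaling partner of neuropilin-1, was at 4.41 and 4.73 FPKM in stromal, 6.88 and 7.39 FPKM in basal, 3.9, 4.84 and 6.4 FPKM in Sca-1+ luminal and 1.01, 2.07 and 0.786 FPKM in Sca-1- luminal libraries. The Sca-1- luminal libraries lay below all others, and stromal (1.32 ± 0.292, adjusted p = 0.00435), basal (1.87 ± 0.292, 0.000796) and Sca-1+ luminal libraries (1.42 ± 0.261, 0.00406) were each called higher than them. Plxna2 and Plxna3 reached at most 1.88 and 1.35 FPKM in any library. The other 4 plexins (Plxna4, Plxnb3, Plxnc1, Plxnd1) did not pass the filter and reached at most 1.16 FPKM, in stromal replicate 1 for Plxnd1, the receptor of Sema3e.

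Both neuropilins, the ligand-binding partners of plexins and also co-receptors of VEGF, had their highest mean in stromal libraries, by a wide gap for Nrp1 and a narrow one for Nrp2. Nrp1 (chr8:128358591-128505476) was at 36.5 and 37.4 FPKM in stromal, 0.994 and 1.45 FPKM in basal, 27.7, 14.5 and 3.71 FPKM in Sca-1+ luminal and 1.18, 0.434 and 0.954 FPKM in Sca-1- luminal libraries. Both stromal libraries stood above all others, while basal and Sca-1- luminal libraries overlapped. The change was 4.10 ± 0.661 for stromal against basal (adjusted p = 0.00295) and 4.38 ± 0.603 for stromal against Sca-1- luminal libraries (0.00042), both kept in each of 18 other settings. Nrp2 (chr1:62703317-62818692) was at 6.32 and 4.11 FPKM in stromal, 4.08 and 4.23 FPKM in basal, 8.15, 5.03 and 2.2 FPKM in Sca-1+ luminal and 0.804, 0.58 and 0.309 FPKM in Sca-1- luminal libraries. Stromal and basal libraries overlapped for Nrp2 (0.25 ± 0.44, adjusted p = 0.762), and both were higher than Sca-1- luminal libraries, by 1.98 ± 0.402 (0.00292) and 1.73 ± 0.402 (0.00642). The endothelial markers, a further known source of neuropilins, summed to 11.9 to 15 FPKM in stromal, 5.69 to 6.47 FPKM in basal, 5.48 to 31.8 FPKM in Sca-1+ luminal and 9.05 to 13.5 FPKM in Sca-1- luminal libraries, with Tek at 0 in Sca-1- luminal replicate 2. Their part in the neuropilin values was not tested.

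Ephrins divided between gates. Efna1 (chr3:89271730-89280951), the main ligand of EphA2, was at 2.58 and 8.9 FPKM in stromal, 42.6 and 49.1 FPKM in basal, 34.3, 63 and 87.8 FPKM in Sca-1+ luminal and 81.6, 116 and 36.6 FPKM in Sca-1- luminal libraries. The 3 epithelial gates overlapped one another and the stromal libraries lay below all of them, at a change of -2.97 ± 0.627 against basal (adjusted p = 0.00912) and -3.58 ± 0.572 against Sca-1- luminal libraries (0.000859). The stromal to basal call was lost without basal replicate 1, basal replicate 2 or stromal replicate 1, with an adjusted p of at most 0.0722. Efnb1 (chrX:99136061-99149022), a transmembrane ephrin that binds EphB receptors, was at 21.3 and 24.7 FPKM in stromal, 43.6 and 42.9 FPKM in basal, 18.8, 18.5 and 11.9 FPKM in Sca-1+ luminal and 3.43, 3.73 and 4.59 FPKM in Sca-1- luminal libraries. The gates did not overlap. Stromal libraries exceeded Sca-1- luminal libraries by 2.29 ± 0.245 (adjusted p = 0.000121), basal libraries did so by 3.18 ± 0.245 (2.49e-05), and Sca-1+ luminal libraries were higher as well, by 1.8 ± 0.219 (0.000713). Basal libraries exceeded Sca-1+ luminal libraries by 1.37 ± 0.245 (adjusted p = 0.00538), a call lost without basal replicate 2 (adjusted p = 0.0532). For stromal against basal the change was -0.89 ± 0.269 (adjusted p = 0.0406), lost in 7 of 18 other settings, with an adjusted p of at most 0.171. Efnb2 (chr8:8617235-8661242), the preferred ligand of EphB4, was at 27.5 and 13 FPKM in stromal, 19.1 and 15.2 FPKM in basal, 24.5, 20.7 and 40.1 FPKM in Sca-1+ luminal and 14.7, 15.7 and 5.77 FPKM in Sca-1- luminal libraries. The 2 luminal gates did not overlap, and their change of 1.23 ± 0.412 (adjusted p = 0.0439) was lost in 12 of 17 other settings, with an adjusted p of at most 0.139. Efna5, which binds several EphA receptors, was at 2.12 and 1.49 FPKM in stromal, 4.73 and 3.81 FPKM in basal, 3.16, 3.02 and 3.02 FPKM in Sca-1+ luminal and 0.45, 0.271 and 0.244 FPKM in Sca-1- luminal libraries. Its gates were again separate, and basal libraries exceeded Sca-1- luminal libraries by 1.99 ± 0.216 (adjusted p = 0.000111). Efna2, the other tested ephrin, reached 1.34 FPKM at most.

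Epha2, Ephb3 and Ephb4 were highest in basal libraries and Ephb6 in Sca-1- luminal libraries. Epha2 (chr4:141301221-141329384), a receptor tyrosine kinase bound by ephrin-A1, was at 5.28 and 7.97 FPKM in stromal, 64.5 and 69.5 FPKM in basal, 15.4, 23.2 and 54.8 FPKM in Sca-1+ luminal and 2.77, 3.13 and 1.08 FPKM in Sca-1- luminal libraries. The 4 gates did not overlap, and within the Sca-1+ luminal gate replicate 3 came nearest to the basal libraries. The change was -3.18 ± 0.532 for stromal against basal (adjusted p = 0.00344), 4.41 ± 0.485 for basal against Sca-1- luminal (0.000122) and 3.14 ± 0.434 for Sca-1+ against Sca-1- luminal libraries (0.00121). Basal and Sca-1+ luminal libraries differed by 1.28 ± 0.485, which was not called (adjusted p = 0.0922). Ephb3 (chr16:21204620-21223309), a receptor of B-type ephrins, was at 3.14 and 4.27 FPKM in stromal, 22.1 and 32.7 FPKM in basal, 7.63, 11.4 and 10.5 FPKM in Sca-1+ luminal and 1.13, 1.7 and 0.559 FPKM in Sca-1- luminal libraries. The order of the gates was the same as for Epha2, with no overlap. All 5 comparisons called Ephb3, from -2.58 ± 0.34 for stromal against basal (adjusted p = 0.00147) to 3.75 ± 0.311 for basal against Sca-1- luminal libraries (2.95e-05). The basal to Sca-1+ luminal change of 1.38 ± 0.311 (0.0144) was lost without basal replicate 2 and with replicate 3 as the only Sca-1+ luminal library, with an adjusted p of at most 0.145. Without stromal replicate 2 the stromal to Sca-1- luminal change of Ephb3 (1.17 ± 0.311, adjusted p = 0.0108) was lost at an adjusted p of 0.078. Ephb4 (chr5:137350109-137374522), the receptor of ephrin-B2, was at 4.96 and 3.91 FPKM in stromal, 14 and 14.1 FPKM in basal, 5.7, 4.48 and 7.67 FPKM in Sca-1+ luminal and 2.86, 1.59 and 3.41 FPKM in Sca-1- luminal libraries. Basal libraries lay above the rest, by 2.09 ± 0.298 over Sca-1- luminal libraries (adjusted p = 0.000483). Ephb4 was also called for stromal against basal (-1.47 ± 0.326, 0.0112) and for basal against Sca-1+ luminal libraries (1.14 ± 0.298, 0.0259), and both calls were lost in some settings, the stromal one without basal replicate 1, basal replicate 2 or stromal replicate 2 (adjusted p of at most 0.0766), and the other in 5 of 18 settings, among them the omission of either basal library (at most 0.199).

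Ephb6 (chr6:41603834-41620509), an Eph receptor without kinase activity, was at 1.53 and 1.68 FPKM in stromal, 6.24 and 1.4 FPKM in basal, 6.15, 3.68 and 5.06 FPKM in Sca-1+ luminal and 18.6, 9.72 and 15.4 FPKM in Sca-1- luminal libraries. The Sca-1- luminal libraries stood above all 7 others, while 1 basal library lay with the stromal and 1 with the Sca-1+ luminal libraries. Its change was -2.54 ± 0.448 for stromal against Sca-1- luminal (adjusted p = 0.00144), -1.86 ± 0.448 for basal against Sca-1- luminal (0.00777, and 0.082 without basal replicate 2) and -1.36 ± 0.4 for Sca-1+ against Sca-1- luminal libraries (0.0274). With Sca-1+ luminal replicate 3 alone the change was -1.32 ± 0.587 (adjusted p = 0.166). Epha4, which binds ephrins of both types, was at 2.67 and 1.19 FPKM in stromal, 2.13 and 1.5 FPKM in basal, 3.39, 2.81 and 5.42 FPKM in Sca-1+ luminal and 0.405, 0.371 and 0.339 FPKM in Sca-1- luminal libraries. The Sca-1- luminal libraries were below every other library, and the change between the luminal gates was 1.79 ± 0.271 (adjusted p = 0.0017). Epha3 and Epha7 reached 2.84 and 1.87 FPKM at most. The 7 Eph receptors that did not pass the filter include Epha1, listed at 4.5 FPKM in Sca-1- luminal replicate 3 and at 0 in the other 9 libraries.

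Both netrins tested, Ntn4 and Ntn1, had their highest mean in stromal libraries. Ntn4 (chr10:93641049-93745972), a netrin of basement membranes that binds laminin, was at 24.1 and 30.8 FPKM in stromal, 1.98 and 2.91 FPKM in basal, 24.8, 13.8 and 14.7 FPKM in Sca-1+ luminal and 0.633, 0.342 and 0.956 FPKM in Sca-1- luminal libraries. Stromal and Sca-1+ luminal libraries overlapped, and all of them lay above every basal and Sca-1- luminal library. The change was 3.05 ± 0.339 for stromal against basal (adjusted p = 0.000612), 4.12 ± 0.31 for stromal against Sca-1- luminal (2.86e-05), -2.41 ± 0.31 for basal against Sca-1+ luminal (0.00134) and 3.48 ± 0.277 for Sca-1+ against Sca-1- luminal libraries (0.000143), each kept in 18 of 18 other settings. Ntn1 (chr11:68209364-68386826), the founding netrin and a ligand of Dcc, neogenin and Unc5 receptors, was at 13 and 9.29 FPKM in stromal, 0.387 and 0.36 FPKM in basal, 8.54, 4.15 and 1.08 FPKM in Sca-1+ luminal and 0.39, 0.22 and 0.438 FPKM in Sca-1- luminal libraries. Here the stromal libraries stood above all others, by 3.13 ± 0.559 over basal (adjusted p = 0.0045) and 3.15 ± 0.51 over Sca-1- luminal libraries (0.000927). The basal to Sca-1+ luminal change of Ntn1 (-1.77 ± 0.51, adjusted p = 0.0381) was lost in 14 of 18 other settings, with an adjusted p of at most 0.206. Among their receptors, Unc5b, which mediates netrin repulsion, was at 2.94 and 2.21 FPKM in stromal, 3.64 and 3.76 FPKM in basal, 2.04, 2.84 and 3.93 FPKM in Sca-1+ luminal and 0.872, 1.17 and 1.88 FPKM in Sca-1- luminal libraries. Unc5a was at 0.485 and 0.404 FPKM in stromal, 0.14 and 0.037 FPKM in basal, 0.569, 0.258 and 0.0785 FPKM in Sca-1+ luminal and 1.68, 0.84 and 1.52 FPKM in Sca-1- luminal libraries. These receptors thus had opposite orders at low levels: against Sca-1- luminal libraries, basal libraries were higher for Unc5b (1.05 ± 0.284, adjusted p = 0.0135, lost without basal replicate 1 or 2 at an adjusted p of at most 0.0749) and lower for Unc5a (-1.09 ± 0.238, 0.00474). Unc5a passed the filter only through its Sca-1- luminal libraries, so it had to differ and its call is no separate support. Neo1, which is no member but receives both netrins, averaged 8.19 FPKM in stromal, 3.38 FPKM in basal, 5.91 FPKM in Sca-1+ luminal and 3.92 FPKM in Sca-1- luminal libraries, and Dcc was at 0.0201 FPKM or less in every library.

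Slit3 and Robo2 were likewise highest in stromal libraries. Slit3 (chr11:35121456-35708507), a secreted Slit, was at 64.6 and 42.8 FPKM in stromal, 3.57 and 2.9 FPKM in basal, 50, 21.1 and 2.83 FPKM in Sca-1+ luminal and 0.567, 0.211 and 0.348 FPKM in Sca-1- luminal libraries. Stromal libraries overlapped with Sca-1+ luminal replicate 1, and replicate 3 of that gate lay beside the basal libraries. The change was 5.29 ± 0.831 for stromal against Sca-1- luminal libraries (adjusted p = 0.00079) and 3.67 ± 0.91 for stromal against basal libraries (0.0182), and the stromal to basal call was lost without any 1 of the 4 stromal and basal libraries, with an adjusted p of at most 0.103. Robo2 (chr16:73891976-75447443), a receptor of Slits, was at 15.4 and 23.2 FPKM in stromal, 2.61 and 2.08 FPKM in basal, 16.1, 9.5 and 0.869 FPKM in Sca-1+ luminal and 0.206, 0.0622 and 0.237 FPKM in Sca-1- luminal libraries. Its pattern over libraries was like that of Slit3. The stromal to Sca-1- luminal change was 4.10 ± 0.739 (adjusted p = 0.00161), whereas the stromal to basal change of 2.58 ± 0.81 (0.0468) was lost in 11 of 18 other settings, among them the omission of any 1 stromal or basal library, with an adjusted p of at most 0.202. Slit2 was lower, at 2.79 and 1.26 FPKM in stromal, 0.586 and 0.166 FPKM in basal, 5.35, 1.61 and 0.698 FPKM in Sca-1+ luminal and 0.178, 0.0051 and 0.0736 FPKM in Sca-1- luminal libraries. Robo1, the other main Slit receptor, was at 3.78 and 3.08 FPKM in stromal, 4.52 and 3.34 FPKM in basal, 3.94, 2.17 and 0.768 FPKM in Sca-1+ luminal and 0.755, 0.41 and 0.68 FPKM in Sca-1- luminal libraries. Unlike for Robo2, stromal and basal libraries overlapped for Robo1 (-0.15 ± 0.418, adjusted p = 0.863). Robo4, known from endothelium, measured 1.32, 1.53 and 0.151 FPKM across Sca-1+ luminal replicates 1 to 3, and 0.448 FPKM or less in every library of the other gates, beside endothelial marker sums of 31.8, 22.3 and 5.48 FPKM in the same 3 libraries. Slit1 and Robo3 were at 0.0218 FPKM or less.

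Members differed in how they varied over the 3 Sca-1+ luminal libraries. As a percentage of the stromal mean, replicates 1, 2 and 3 were at 93.1%, 39.4% and 5.26% for Slit3, at 83.4%, 49.2% and 4.5% for Robo2, at 74.9%, 39.3% and 10% for Nrp1, at 76.8%, 37.3% and 9.71% for Ntn1 and at 47.9%, 36.7% and 4.67% for Sema4c. The fibroblast markers Col1a1 (114%, 60.2% and 7.1%) and Pdgfra (93%, 51.8% and 4.68%) had the same order over these libraries. Nrp2 (156%, 96.5% and 42.1%), Sema5a (48.2%, 37.9% and 22.5%) and Efnb1 (81.5%, 80.6% and 51.7%) fell in that order too. The part of the fibroblast markers in these members was not tested. Ntn4, at 90.4%, 50.4% and 53.5%, did not follow that order between replicates 2 and 3. Efna1, Efnb2, Epha2, Ephb4, Plxna1, Plxnb1, Plxnb2, Sema3b, Sema3f and Sema4a were each highest in replicate 3, where the fibroblast marker sum was lowest. Sema3c, at 169%, 91.3% and 170%, was nearly equal in replicates 1 and 3. With replicate 3 as the only Sca-1+ luminal library, the change against Sca-1- luminal libraries was 3.27 ± 0.337 for Ntn4 (adjusted p = 0.00103), 4.13 ± 0.42 for Epha2 (0.000988), 2.46 ± 0.391 for Ephb3 (0.00573), 2.40 ± 0.396 for Sema3c (0.00654), 2.22 ± 0.39 for Sema5a (0.00838) and 2.05 ± 0.269 for Plxnb2 (0.00267). It was 1.73 ± 0.351 for Plxna1 (0.0145), 1.40 ± 0.264 for Efnb1 (0.0111), 2.23 ± 0.328 for Epha4 (0.00417) and, not called, 1.04 ± 0.317 for Nrp2 (0.0602). These fits assume that the lone library varies as the other groups do. The same fit called Slit3 (1.49 ± 0.332, adjusted p = 0.0216, against 3.57 ± 0.743 with all 3 libraries) and Nrp1 (1.37 ± 0.326, 0.0269, against 2.81 ± 0.54). It did not call Robo2 (0.68 ± 0.31, adjusted p = 0.173), Ntn1 (0.63 ± 0.272, 0.155) or Sema4c (0.97 ± 0.386, 0.125), which with all 3 libraries had changes of 2.58 ± 0.661, 1.8 ± 0.457 and 2.86 ± 0.661 and were called. Without Sca-1+ luminal replicate 2 the calls of Robo2 and Ntn1 were lost as well. Between basal libraries and Sca-1+ luminal replicate 3 alone, Ntn4 (-2.20 ± 0.357, adjusted p = 0.00566) and Efnb1 (1.78 ± 0.28, 0.0049) were still called, and Nrp1 (-1.09 ± 0.345, 0.0694) was not.

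**Figure D3:**
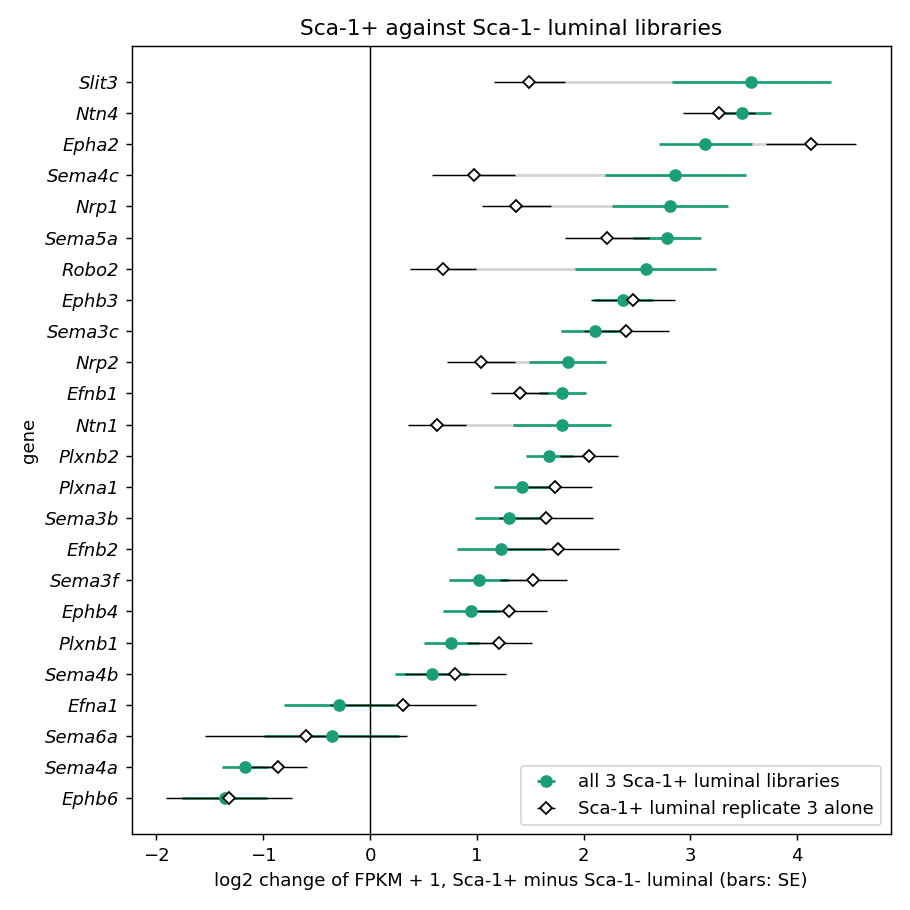
Log2 change of FPKM + 1, Sca-1+ minus Sca-1- luminal, for the 24 genes with a mean of 5 FPKM or more in a gate. Filled circles use all 3 Sca-1+ luminal libraries, open diamonds use replicate 3 alone, and bars are standard errors. Slit3, Sema4c, Robo2 and Nrp1 have much smaller values with replicate 3 alone, while Ntn4 moves little (3.48 and 3.27) and Epha2 has the larger value (3.14 and 4.13).

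Ligands were set beside receptors across gates for 44 pairs known to bind, by the gate of each gene's highest mean. In 28 pairs both partners averaged at least 1 FPKM in some gate, and of these 7 peaked in the same gate and 21 in different gates. This split depends on the list, which leaves out Slit3 with Robo2, both highest in stromal libraries (means of 53.7 and 19.3 FPKM). A highest mean need not be separated from the next: for 3 of the 21 pairs the gates in question were stromal and Sca-1+ luminal, which were not compared. Of the other 18, both partners were called between the 2 gates in 3 pairs (Sema3a with Nrp1, Sema4a with Plxnb1, Sema4c with Plxnb2), 1 partner in 9 pairs and neither in 6. Of these, Sema3a had passed the filter only through its basal libraries. With replicate 3 as the level of the Sca-1+ luminal gate, an alternative chosen after seeing the data, 8 pairs peaked in the same gate and 20 in different gates, and 16 of the 28 kept the gates of both partners. For 4 pairs the ligand had its highest mean in Sca-1- luminal and the receptor in basal libraries. Efna1 averaged 5.74 FPKM in stromal, 45.8 FPKM in basal, 61.7 FPKM in Sca-1+ luminal and 78.2 FPKM in Sca-1- luminal libraries, beside the Epha2 values given above, and Sema4a was placed in the same way beside Plxnb1. Sema4d with Plxnb1 and Sema4d with Plxnb2 were the other such pairs. Between these gates Efna1 and Sema4d were not called (adjusted p = 0.417 and 0.214 by limma), whereas Sema4a and the 3 receptors were. With replicate 3 as the level of the Sca-1+ luminal gate, Efna1 and Sema4d were highest in that gate. The ligand had its highest mean in stromal and the receptor in basal libraries in 4 pairs, Sema4c with Plxnb2, Sema6d with Plxna1, Ntn1 with Unc5b and Slit3 with Robo1. Between these gates Sema6d, Plxna1, Unc5b and Robo1 were not called (adjusted p = 0.794, 0.269, 0.414 and 0.863 by limma). The highest mean was basal for the ligand and stromal for the receptor in 5 pairs, Sema3a and Sema3c with Nrp1, Sema3c and Sema3f with Nrp2, and Efna5 with Epha7. Sema3c, Nrp2 and Epha7 were not called between these gates. For Sema3c and Nrp1 the ligand varied less over gates than the receptor, as Sema3c stayed at 21.8 FPKM or more outside the Sca-1- luminal libraries while Nrp1 was at 1.45 FPKM or less in basal libraries. Efnb1 and Ephb3 peaked together in basal libraries, with means of 43.3 and 27.4 FPKM, as did Sema3a and Plxna1. Nrp1, through which Sema3a signals, averaged 1.22 FPKM in basal libraries. Both netrins peaked with Neo1 in stromal libraries, Sema3d peaked there with Nrp1, and Efnb2 peaked with Epha4 in Sca-1+ luminal libraries. Neo1 and Sema3d were called in no comparison. Neo1 was at 8.79 and 7.59 FPKM in stromal libraries and 9.18 FPKM in Sca-1+ luminal replicate 1. Sema3d was at 2.95 and 0.48 FPKM in stromal libraries. Between basal and Sca-1+ luminal libraries, Efnb2 and Epha4 were not called (adjusted p = 0.335 and 0.103 by limma). Efna1 with Epha1 is the remaining pair with a shared gate, and its receptor rests on 1 library. RNA levels of a pair do not show that the proteins meet, and no test of the pairing was made.

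**Figure D4:**
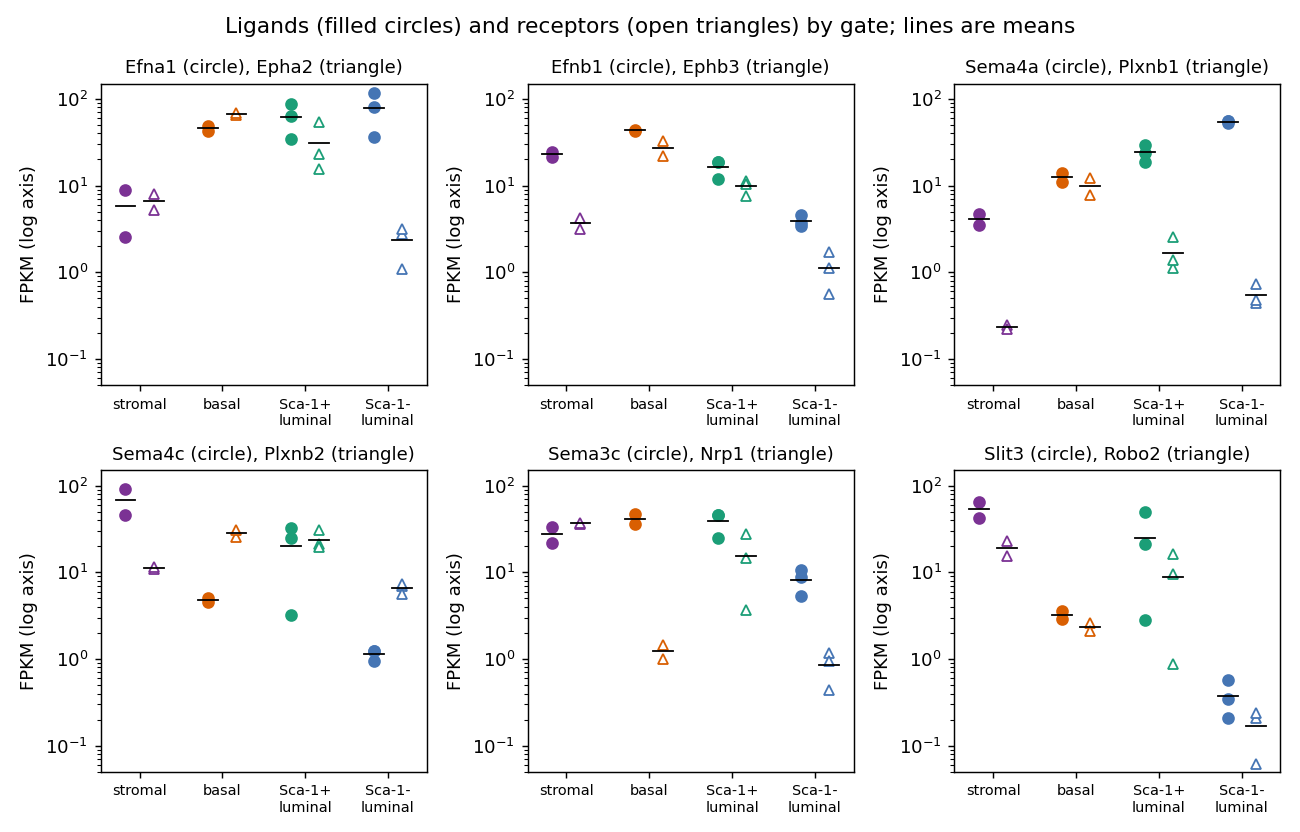
FPKM on a log axis of 6 ligands (filled circles) and receptors (open triangles) in stromal, basal, Sca-1+ luminal and Sca-1- luminal libraries, with 1 point per library and a line at each mean. Slit3 with Robo2 is shown besides the 44 pairs and was chosen after its values were seen. Circles and triangles run in opposite directions over the gates for Sema4a and Plxnb1 outside the stromal libraries, and in the same direction for Slit3 and Robo2.

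Genes that work with the guidance receptors, a list of 78 co-receptors, ligand processors and cytoskeletal transducers, gave the setting of the members. Of these, 64 were tested. How many calls stay when 1 library is left out is not given for this list. Between stromal and basal libraries 12 were higher and 10 lower (34.4%, against 22.5% of all genes), with a median change of 0.04. Gpc1, a heparan sulfate glypican, averaged 210.0 FPKM in stromal and 10.9 FPKM in basal libraries (4.08 ± 0.82, adjusted p = 0.0075), and Dpysl3, a collapsin response mediator, averaged 53.8 FPKM in stromal and 2.39 FPKM in basal libraries (4.02 ± 0.808, 0.00746). Lower in stromal libraries was Met, the receptor of hepatocyte growth factor and a partner of B-type plexins, at 1.39 and 1.31 FPKM in stromal, 42.3 and 40.9 FPKM in basal, 11, 13.8 and 30.4 FPKM in Sca-1+ luminal and 10.8, 7.61 and 4.64 FPKM in Sca-1- luminal libraries (stromal to basal change -4.18 ± 0.459, adjusted p = 0.000568). Met thus shared with Plxnb1 and Epha2 a basal maximum and a Sca-1+ luminal maximum in replicate 3. Rhod and Enah, an actin regulator, were lower in stromal libraries too, by changes of -2.58 ± 0.41 (0.0028) and -3.0 ± 0.482 (0.00291), and Flrt2, a ligand of Unc5 receptors, was higher (2.71 ± 0.77, 0.0316). The stromal libraries were far apart for Flrt2, at 11.8 and 2.94 FPKM. Between stromal and Sca-1- luminal libraries 33 were higher and 8 lower (64.1%, against 52.6% of all genes, median change 0.75), led by Gpc1 (5.83 ± 0.749, adjusted p = 0.000304), Limk1, a kinase of cofilin (4.17 ± 0.625, 0.000629), and Vegfa, which shares the neuropilins with class 3 semaphorins (3.75 ± 0.612, 0.000962). Chn2, a chimaerin that acts on Rac, averaged 0.889 FPKM in stromal, 2.95 FPKM in basal, 4.1 FPKM in Sca-1+ luminal and 27.3 FPKM in Sca-1- luminal libraries and was lower in each of the other gates than in the Sca-1- luminal one, with changes of -3.82 ± 0.393 (adjusted p = 9.93e-05), -2.80 ± 0.393 (0.000437) and -2.40 ± 0.351 (0.00153). Gipc1 (-2.22 ± 0.554, 0.00809) and Limk2 (-1.91 ± 0.429, 0.00474) were further genes with lower stromal values in this comparison.

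Between basal and Sca-1- luminal libraries 23 of the 64 were higher and 4 lower (42.2%, against 46.1% of all genes, median change 0.61). Rnd3, which is bound by plexins, averaged 58 FPKM in basal and 2.73 FPKM in Sca-1- luminal libraries (4.00 ± 0.455, adjusted p = 0.000144), and the integrin subunit Itgb1 averaged 459 FPKM in basal and 55.5 FPKM in Sca-1- luminal libraries (3.05 ± 0.321, 9.6e-05). Gpc4, another glypican, was higher by 2.88 ± 0.44 (0.000721), while Inppl1, a phosphatase bound by EphA2, and Nck1, an adaptor of Eph receptors, were lower by changes of -1.65 ± 0.231 (0.000445) and -1.07 ± 0.362 (0.0356). Between Sca-1+ and Sca-1- luminal libraries 24 were higher and 2 lower (40.6%, against 35.1% of all genes, median change 0.79). Sca-1+ luminal replicate 3 alone was also fitted for this list, a setting added after seeing the data. Gpc1 measured 116, 79.6 and 12.9 FPKM in Sca-1+ luminal and 2.15, 1.88 and 3.84 FPKM in Sca-1- luminal libraries (3.85 ± 0.67, adjusted p = 0.00322). Rnd3 measured 43.1, 20.5 and 18.4 FPKM in Sca-1+ luminal and 4, 1.89 and 2.29 FPKM in Sca-1- luminal libraries (2.86 ± 0.407, 0.00137). Vegfa measured 300, 120 and 57.6 FPKM in Sca-1+ luminal and 30.4, 32.8 and 16.1 FPKM in Sca-1- luminal libraries (2.30 ± 0.547, 0.0122). For all 3 the Sca-1+ luminal libraries stood in the order of their fibroblast marker sums, whose part was not tested, and replicate 3 stayed above every Sca-1- luminal library for each. With replicate 3 alone the change was 1.98 ± 0.421 for Gpc1 (adjusted p = 0.0174), 2.42 ± 0.504 for Rnd3 (0.0162), -2.74 ± 0.507 for Chn2 (0.0102) and, not called, 1.16 ± 0.487 for Vegfa (0.145). Inppl1 was lower in that comparison (-0.85 ± 0.207, 0.0129), a call lost with replicate 3 alone (adjusted p = 0.125). Between basal and Sca-1+ luminal libraries 7 were higher and 3 lower (15.6%, against 19.8% of all genes, median change -0.26). The higher ones were led by Mical2, an actin oxidase downstream of plexins (1.90 ± 0.289, adjusted p = 0.00269), Rras (1.73 ± 0.314, 0.00571) and Enah (1.67 ± 0.44, 0.0267), and the lower ones were Ngef, a guanine exchange factor of EphA4 (-1.47 ± 0.329, 0.0141), Chn1 (-1.44 ± 0.329, 0.0158) and Inppl1 (-0.79 ± 0.231, 0.0397). With Sca-1+ luminal replicate 3 alone the change was 2.24 ± 0.362 for Mical2, 2.04 ± 0.389 for Rras and -1.77 ± 0.391 for Ngef. The calls of Enah (1.48 ± 0.577), Chn1 (-1.18 ± 0.436) and Inppl1 (-0.89 ± 0.319) were lost.

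The 44 members below a mean of 5 FPKM in every gate divide into 19 that were tested and 25 that were not. The 25 untested members reached 4.5 FPKM at most, for Epha1 in a single library, and otherwise 1.32 FPKM (Ephb1, basal replicate 1). Those nearest the filter were Ephb1 at 1.32 and 0.541 FPKM in basal libraries and 0.215 FPKM or less elsewhere, Sema4g with 0.497, 0.82 and 1.14 FPKM in Sca-1- luminal libraries, Plxnd1 at 1.16 and 0.76 FPKM in stromal libraries, and Efna3 at 1.18 FPKM in Sca-1- luminal replicate 2. Efna4, Epha6 and Epha10 were listed at 0 in all 10 libraries. The span of Efna4 overlaps that of a neighboring gene, and the end of Epha1 overlaps Zyx, so their values may be shared with or lost to those genes.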

How the data were processed

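RNA of sorted mouse prostate cells had been sequenced in 10 libraries. Per the labels' protocols, cDNA was made from total RNA with random and poly(dT) primers, and strand retention is not stated. The submitters' processing notes name bcl2fastq 1.8.3, TopHat, Cufflinks and build mm10, with no version of TopHat or Cufflinks given in the sources used here. The authors deposited FPKM per UCSC transcript with confidence bounds, and, per the file headers, a coverage signal, which served in no test. The members and lists were chosen with earlier results of these data known.

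Of 63241 transcripts, 83.7% were named by mm10 position from GENCODE M21 and RefSeq GRCm38.p6. Those of at least 300 nt were summed per gene. Genes with a failed estimate (7), none of them a member, were left out. Depth was read from whole-fragment steps of isolated transcripts (92.5% to 94.0% of low values within 0.05 of a whole number), and no count test was made. Genes with overlapping loci are uncertain.

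Tests used limma 3.58.1 (R 4.3.3; lmFit, contrasts.fit, eBayes with trend) on log2(FPKM + 1), pseudocount 1, for genes at 1 FPKM or more in 2 or more libraries, with 1 mean per gate over all 10 libraries, Benjamini-Hochberg adjustment over 12425 genes and a threshold of 0.05. The steps were tested on simulated data. A fold on this scale understates the change of low genes. Errors after ± are standard errors. Replicate numbers follow the listed order. Named members are those with a mean of 5 FPKM or more in a gate, and named partner genes are the 3 called with the largest change in each direction whose libraries do not overlap. Other members given with values were chosen after these were seen. Alternatives were another pseudocount, no filter, 2 rescalings, only the compared gates, other transcript rules, each library left out, and Sca-1+ luminal replicate 3 alone. Tables used pandas 2.3.3 in Python 3.11.15, and figures matplotlib 3.10.9.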

Additional observations from a re-analysis of the deposited data

How the results depend on the processing

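No call of a member changed sign in any setting. Of 108 calls over the 5 comparisons, 55 were kept in every setting and 53 were lost in at least 1: kept were 8 of 22 for stromal against basal, 16 of 26 for stromal against Sca-1- luminal, 15 of 22 for basal against Sca-1- luminal, 13 of 28 for Sca-1+ against Sca-1- luminal and 3 of 10 for basal against Sca-1+ luminal libraries. Under the other pseudocount, filter, rescalings, transcript rules and 2-gate fits, each count of called members stayed within 1.5 times its value. Leaving out 1 library gave 9 to 23, 17 to 29, 17 to 25, 19 to 31 and 3 to 16 calls in the same order of comparisons. Rescaling moved the median change of all genes, for Sca-1+ against Sca-1- luminal libraries by -0.17 (median of ratios) and -0.26 (quantile), and for basal against Sca-1+ luminal libraries by 0.25 and 0.37. The share of higher calls among all genes then became 46% and 40.4%, against 62.1%, in the luminal comparison, and 46.1% and 53%, against 22.2%, for basal against Sca-1+ luminal libraries. The stromal to basal median moved by -0.12 under quantile normalization. Depth limits values near 1 FPKM, where a transcript of 1 kb rests on 20 to 27 fragments. No paired analysis was possible because the labels carry no replicate numbers.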
